A study of Homo sapiens with 8 samples.

Results

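Histone lysine methyltransferases add methyl groups to lysines of the histone tails, and histone lysine demethylases remove them. They are grouped here by the lysine they act on: methylation of H3K4 is a mark of active promoters and enhancers, that of H3K9 and H3K27 a mark of silenced chromatin, and that of H3K36 and H3K79 a mark of transcribed genes. Several genes of this kind are known to be altered in plasma cell myeloma, among them KDM6A and the methyltransferase NSD2. The set described here holds 39 genes, 24 methyltransferases (with the core subunits EED and SUZ12) and 15 demethylases, of the 19775 genes with a probe set of their own on the array. They were chosen by function, as the listed genes under a current or older symbol, and 129 probe sets carry one of them alone. All 39 were bright enough to be tested.

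Expression was measured on HG-U133 Plus 2.0 oligonucleotide arrays in 4 groups of 2 arrays. The groups were OPM1-labelled cells treated with Zalypsis at 5 nM, untreated OPM1-labelled cells, MM1S cells treated with Zalypsis at 5 nM and untreated MM1S cells. MM1S and OPM1 are human plasma cell myeloma lines, and Zalypsis is a synthetic alkaloid related to marine compounds that binds DNA. Treated cells were collected when cell death set in, at 15 to 20% of cells by annexin V staining, and the hours of treatment are not given. No transgene or altered allele is named for either line. The labels leave it unsaid whether 2 arrays of a group hold RNA of different cultures, and the spread behind every p-value may thus be technical only.

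Arrays of 1 group correlated at 0.988 to 0.993 and arrays of different groups at 0.802 to 0.963. Treated OPM1-labelled arrays had upper quartiles of signal at 77.5 and 78.7, against 101 to 115 for the other 6. The ACTB ratio of 3′ to 5′ signal, a sign of RNA integrity, was 5.80 on the first untreated OPM1-labelled array and 1.78 to 2.62 on the others. Signals of 9 plasma cell markers summed to 4082 to 6004 on the OPM1-labelled arrays and to 26717 to 37374 on the MM1S arrays, and those of 5 B cell markers to 4248 to 10299 and 204 to 270.0. SDC1, the surface marker of plasma cells, read 6.56 to 13.96 on the OPM1-labelled arrays, so this defining marker was near background in cells labelled as a plasma cell tumour line. Others were not: CD38 read 400.1 and 578 in untreated OPM1-labelled cells, against 61.1 and 47.3 in untreated MM1S cells, and JCHAIN read 1867 and 2194 in untreated OPM1-labelled cells, against 10708 and 10574 in untreated MM1S cells. B cell markers summed to 5244 and 4248 with Zalypsis and 9021 and 10299 without it in OPM1-labelled cells, and 3 myeloid markers to 150.2 and 100.1 with it and 27.04 and 43.6 without it; their part in the results was not tested. Of those 3, CD14 read 123 and 74.4 with it and 5.82 and 4.89 without, LYZ 5.53 and 5.85 with it and 7.74 and 10.2 without, and CSF1R 21.8 and 19.9 with it and 13.5 and 28.6 without. The B cell markers also differed in these cells. PAX5 read 64.8 and 37.0 with Zalypsis and 2883 and 3556 without, and EBF1 14.6 and 9.05 with it and 492 and 531 without. MS4A1 and CD79B were lower with Zalypsis too, while CD79A read 4217 and 3243 with it and 3123 and 3435 without. Every change below is relative to the deposited scaling, under which the median log2 change of all genes tested was -0.07 in OPM1-labelled cells and 0.02 in MM1S cells. Scaled to the poly-A control RNA, 38 of the 11865 genes tested were called higher in OPM1-labelled cells and the median was -0.88, and none of the 39 members was among those 38. The geometric mean of that control RNA was 1948 and 1479 on treated OPM1-labelled arrays and 349 and 541 on their controls. It was 30.6 and 27.5 on treated MM1S arrays and 22.7 and 24.97 on their controls, so this scaling moves arrays by large factors. Fewer cells expressing a gene and less RNA per cell cannot be told apart in these samples.

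Most of the enzymes were lower after Zalypsis in OPM1-labelled cells, and fewer were in MM1S cells. In OPM1-labelled cells 27 of the 39 fell, against 38.5% of all 11865 genes tested, and 2 rose, against 25.4%. The 27 include PRDM2, whose probe sets went both ways. In MM1S cells 16 fell, against 21.1% of all genes, and 4 rose, SUV39H2, EHMT2, KMT5A and KDM6B, against 16.4%. None of those 4 passed under poly-A scaling (0.22 to 0.25) or without the first treated MM1S array, and SUV39H2 alone passed without the second MM1S control array. KMT5A and KDM6B were also lost without the second treated MM1S array, and KMT5A without the first MM1S control array. A call here is an adjusted p under 0.05 in limma, fitted over all genes to log2(signal + 32). The median log2 change of the 39 was -1.12 in OPM1-labelled cells and -0.30 in MM1S cells. Arrays of treated and untreated OPM1-labelled cells did not overlap for 35 members, 30 of them lower with Zalypsis (45.4% of all genes) and 5 higher (34.6%). In MM1S cells 22 were lower without overlap (32.7%) and 10 higher (33.7%). By the 2-fold rule of the study's design text, on the signals themselves, 22 members were lower in OPM1-labelled cells (26.7% of all genes) and 7 in MM1S cells (9.9%), and 1 was higher in OPM1-labelled cells (11.2%) and none in MM1S cells (3.77%). There were 14 genes that fell in both lines, against 17.6% of all genes tested, none that rose in both, against 9.55%, and 1, KMT5A, with opposite calls, against 2.28%.

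**Figure D1:**
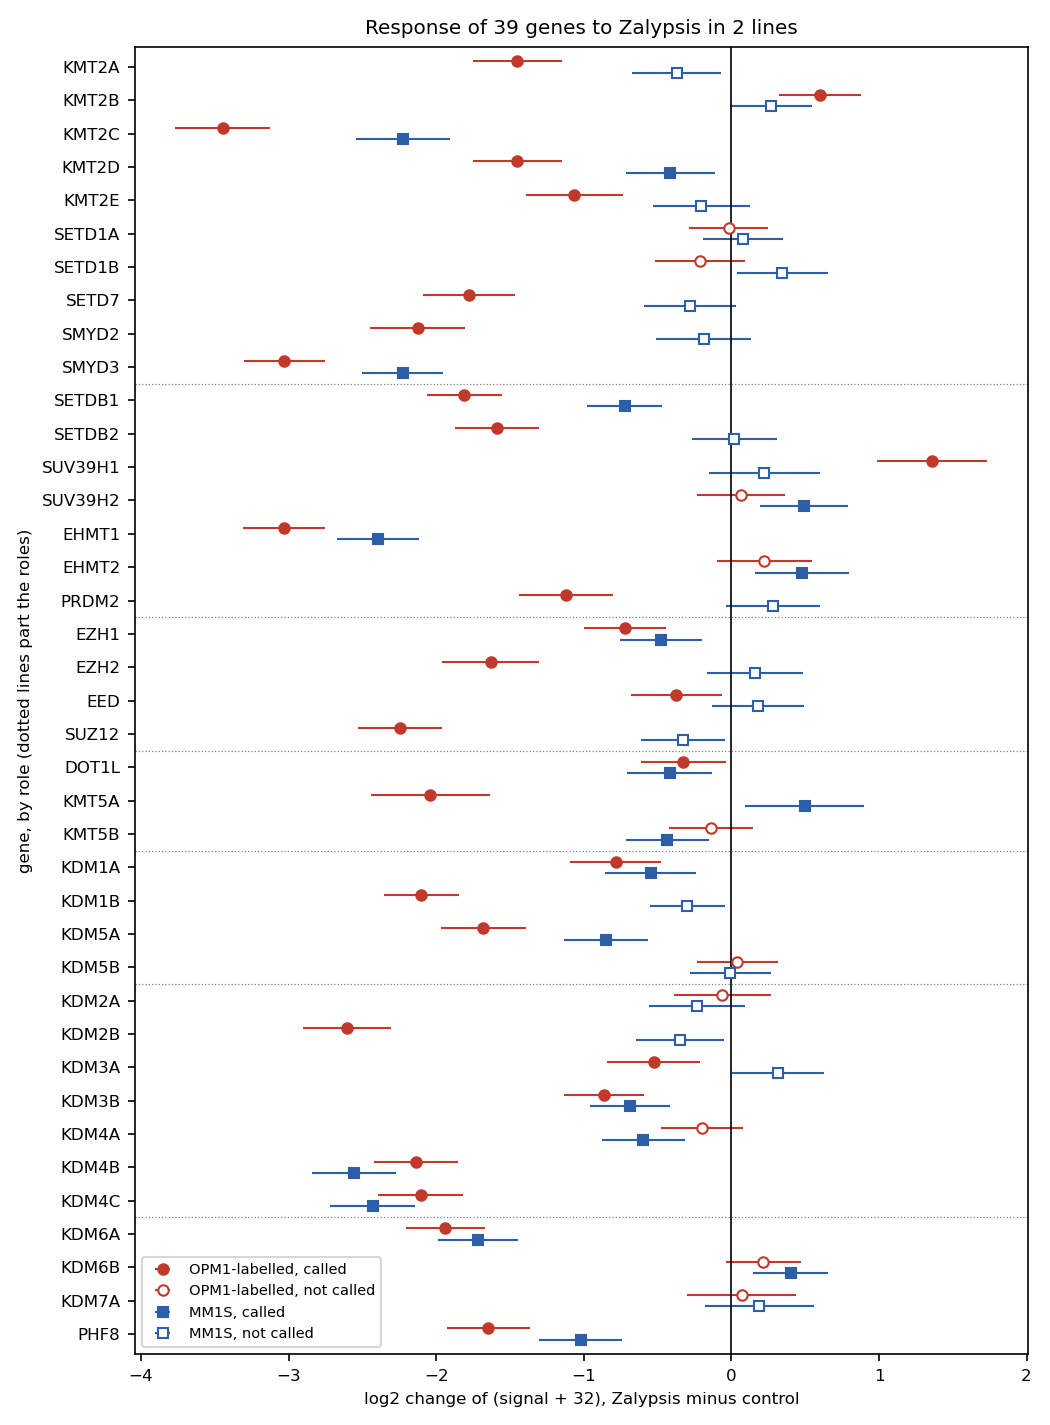
Log2 change of (signal + 32), Zalypsis minus control, for each of the 39 genes in OPM1-labelled and MM1S cells, ordered by role, with 95% intervals and filled symbols for called changes. On this scale KMT2C (-3.45) is lowest in OPM1-labelled cells and KDM4B (-2.56) in MM1S cells; by the ratio of mean signals EHMT1 (0.0415) and KDM4C (0.0456) are, with treated signals under 27.3, and SUV39H1 stands highest in OPM1-labelled cells (1.36, but -0.30 under poly-A scaling).

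Of 10 genes grouped as H3K4 methyltransferases, 7 fell and 1 rose in OPM1-labelled cells, and 3 fell in MM1S cells, beside 38.5%, 25.4% and 21.1% of all genes; the MM1S share is near that of all genes. KMT2C, which with KMT2D methylates H3K4 at enhancers, had the lowest change of the set in OPM1-labelled cells on the log2(signal + 32) scale, while EHMT1, with treated signals under 27.3, was lower by the ratio of means (0.0415). Its signal was 40.02 and 34.9 in treated OPM1-labelled cells, against 841 and 625 in their controls, and 184 and 174 in treated MM1S cells, against 1011 and 903 in theirs. The treated mean was 0.0511 of the control mean in OPM1-labelled cells and 0.187 in MM1S cells. The log2 change was -3.45 ± 0.15 (SE, n = 2 against 2; limma, adjusted p = 2.5e-14) in OPM1-labelled cells and -2.23 ± 0.15 (adjusted p = 1.4e-10) in MM1S cells. No treated array reached a control array in either line, and the fall was larger in OPM1-labelled cells (difference -1.22 ± 0.22, SE; limma, adjusted p = 8.6e-05), a call lost under poly-A scaling (-0.35, adjusted p = 0.432) and with the mean of probe sets (-0.33, adjusted p = 0.0716). KMT2D fell in both lines, with log2 changes of -1.45 in OPM1-labelled cells and -0.41 in MM1S cells (limma, adjusted p = 1.1e-08 and 0.0279). Its call in MM1S cells was lost on leaving out any one of the 4 MM1S arrays.

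SMYD3, a SET and MYND domain methyltransferase with histone and cytoplasmic substrates, spans more of the genome than any other member. It read 70.3 and 50.7 in treated OPM1-labelled cells, against 699 and 741 in controls, and 8.93 and 11.3 in treated MM1S cells, against 171 and 159 in controls. It fell in both lines, with log2 changes of -3.03 ± 0.13 in OPM1-labelled cells and -2.23 ± 0.13 in MM1S cells (SE; limma, adjusted p = 1.8e-14 and 1.1e-11). Both treated MM1S values lay under 27.3, the mean signal below which genes were not tested, so the added 32 compresses that change. The related SMYD2, which methylates p53 besides histones, read 204 and 206 in treated OPM1-labelled cells, against 1064 and 942 in controls, a log2 change of -2.12 ± 0.15 (SE; limma, adjusted p = 6.2e-11). In MM1S cells it read 575 and 503 with Zalypsis and 683 and 557 without, ranges that overlap (log2 change -0.19, adjusted p = 0.369). The fall of SMYD2 rests on 1 probe set: the other tested one had a log2 change of 0.24 in OPM1-labelled cells (adjusted p = 0.107).

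KMT2A, the MLL protein rearranged in acute leukaemias, read 94.4 and 122 in treated OPM1-labelled cells, against 347 and 353 in controls, and 279.6 and 247 in treated MM1S cells, against 374 and 324 in controls. It fell in OPM1-labelled cells (log2 change -1.45 ± 0.15, SE; limma, adjusted p = 1.1e-08), while the change of -0.37 in MM1S cells narrowly missed the threshold (adjusted p = 0.0505). KMT2B, its closest paralog, went the other way: it read 231 and 253 in treated OPM1-labelled cells, against 148 and 149 in controls, with no overlap. KMT2B rose in OPM1-labelled cells by 0.60 ± 0.13 (SE; limma, adjusted p = 4.5e-04), but scaling to the poly-A control RNA turned this to -0.65 and averaging its probe sets left 0.20 (adjusted p = 0.0646). In MM1S cells KMT2B read 264 and 246 with Zalypsis and 219 and 195 without (log2 change 0.27, adjusted p = 0.125). KMT2E, a chromatin-binding relative, and SETD7, which adds a single methyl group to H3K4 and to non-histone proteins, fell in OPM1-labelled cells, with log2 changes of -1.06 and -1.78 (limma, adjusted p = 3.8e-06 and 7.1e-10). In MM1S cells their log2 changes of -0.20 and -0.28 did not pass. SETD1A and SETD1B, the enzymes responsible for most H3K4 trimethylation, were called in neither line. Their 95% intervals in OPM1-labelled cells were -0.29 to 0.25 for SETD1A and -0.52 to 0.10 for SETD1B, and in MM1S cells -0.19 to 0.35 and 0.04 to 0.65.

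**Figure D2:**
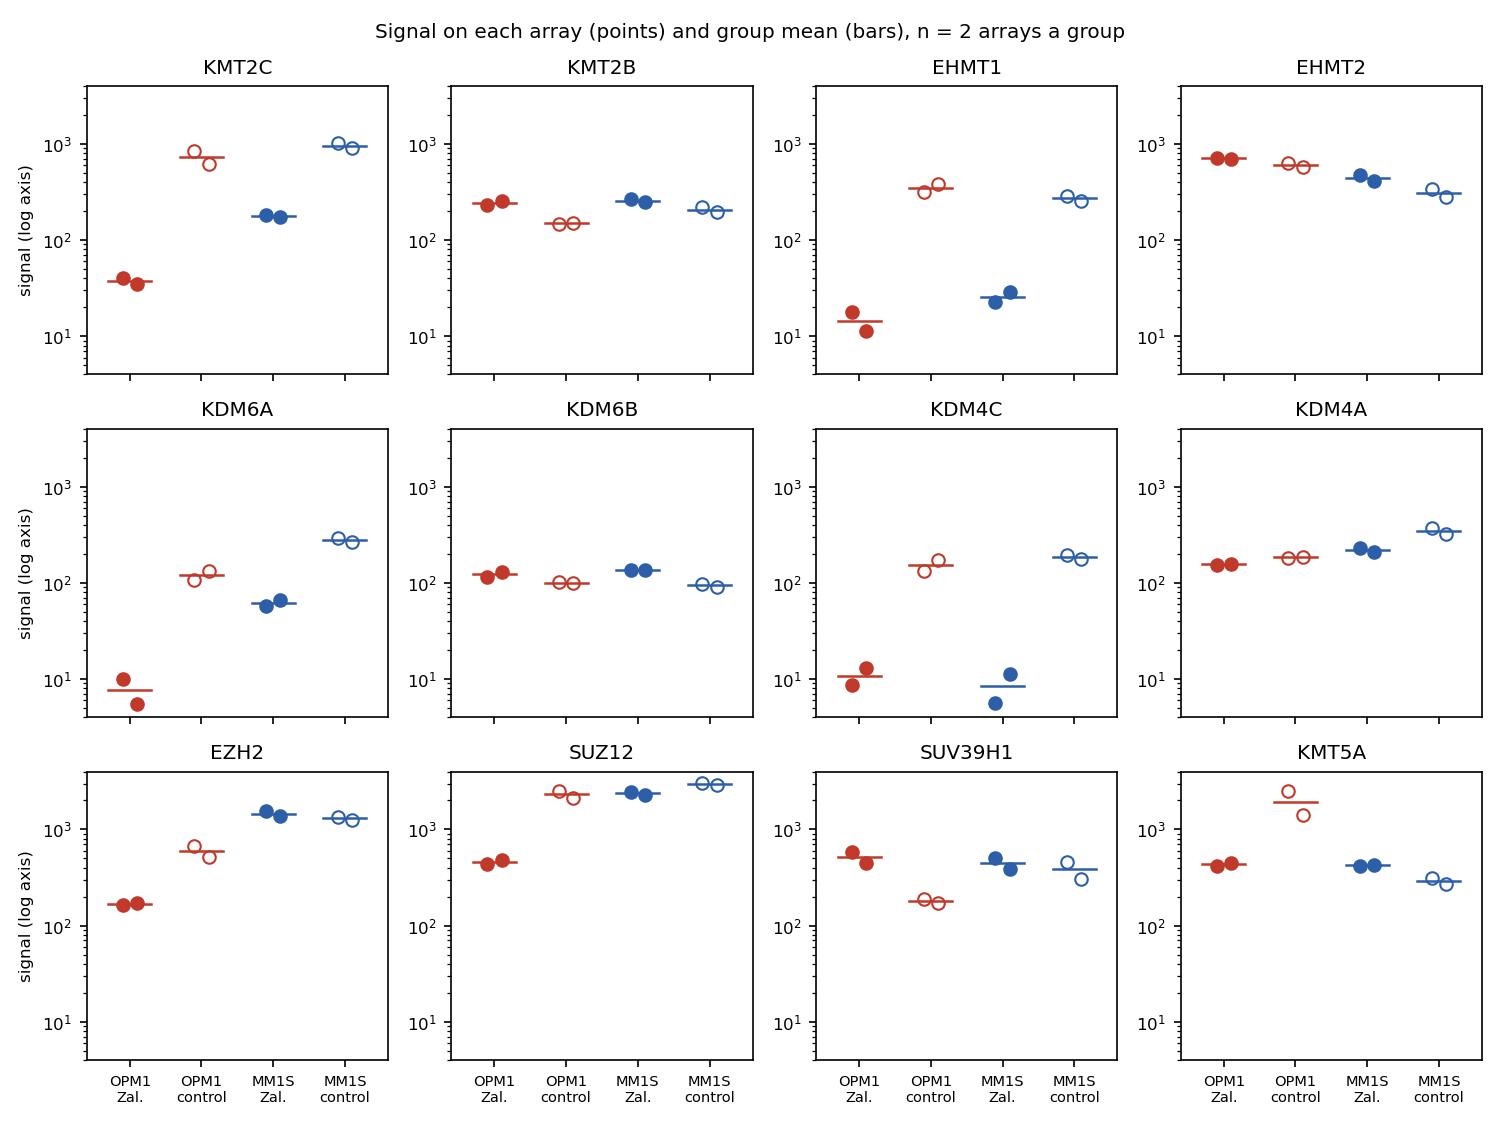
Signal on each array (linear intensity, log axis) for 12 members, in treated and untreated OPM1-labelled cells and treated and untreated MM1S cells. Points are arrays and bars group means. Treated values of EHMT1, KDM4C and KDM6A in OPM1-labelled cells and of EHMT1 and KDM4C in MM1S cells lie at 28.9 or lower, and those of SUZ12 are 2465 and 2289 in treated MM1S cells.

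The H3K9 methyltransferases split within their families. In OPM1-labelled cells 4 of 7 fell (38.5% of all genes) and 1 rose (25.4%), and in MM1S cells 2 fell (21.1%) and 2 rose (16.4%), so the MM1S counts are near the shares of all genes. The 4 include PRDM2, whose probe sets went both ways. EHMT1 and EHMT2 form the dimer that mono- and dimethylates H3K9 outside constitutive heterochromatin, and they parted in both lines. EHMT1 read 17.7 and 11.2 in treated OPM1-labelled cells, against 314 and 382 in controls, and 22.7 and 28.9 in treated MM1S cells, against 287 and 256 in controls. It fell in both lines, with log2 changes of -3.03 ± 0.13 in OPM1-labelled cells and -2.39 ± 0.13 in MM1S cells (SE; limma, adjusted p = 2.2e-14 and 4.6e-12), to treated levels around or under the testing limit of 27.3. EHMT2 read 716 and 695 in treated OPM1-labelled cells, against 625 and 574 in controls, and 476 and 412 in treated MM1S cells, against 342 and 278 in controls. Its change was 0.22 (adjusted p = 0.212) in OPM1-labelled cells, where poly-A scaling turned it to -1.34, and 0.48 (limma, adjusted p = 0.017) in MM1S cells, a call lost under poly-A scaling (0.23, adjusted p = 0.572) and with the mean of probe sets (0.13, adjusted p = 0.369). The treated and control arrays of either gene did not overlap in either line.

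SUV39H1 and SUV39H2 trimethylate H3K9 in pericentric heterochromatin. SUV39H1 read 580.3 and 447 in treated OPM1-labelled cells, against 188 and 171 in controls, and it was the 1 member more than 2-fold higher with Zalypsis (ratio of means 2.87). The log2 change was 1.36 ± 0.18 (SE; limma, adjusted p = 8.0e-07), which poly-A scaling turned to -0.30. In MM1S cells the treated and control arrays of SUV39H1 overlapped, at 506 and 389.6 with Zalypsis and 459 and 307 without. SUV39H2 read 532 and 537 in treated OPM1-labelled cells, against 522 and 498 in controls (log2 change 0.06, adjusted p = 0.722; -1.40 under poly-A scaling). In MM1S cells it rose, at 494 and 476 with Zalypsis and 336 and 334 without (log2 change 0.49 ± 0.14, SE; limma, adjusted p = 9.1e-03), a call that poly-A scaling ended (0.25, adjusted p = 0.543). SETDB1, which with TRIM28 silences retroelements, fell in both lines, with log2 changes of -1.81 in OPM1-labelled cells and -0.72 in MM1S cells (limma, adjusted p = 1.9e-11 and 6.0e-05). The other tested probe set of SETDB1 had -0.01 in OPM1-labelled cells and -0.32 in MM1S cells (limma over probe sets, adjusted p = 0.955 and 0.0447). SETDB2 read 63.6 and 62.1 in treated OPM1-labelled cells, against 265 and 242 in controls, and 45.5 and 26.6 in treated MM1S cells, against 37.6 and 31.4 in controls. It fell in OPM1-labelled cells (-1.59 ± 0.14, SE; limma, adjusted p = 1.1e-09), and its treated values there still stood above those of all 4 MM1S arrays.

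The 4 genes of Polycomb repressive complex 2, the H3K27 methyltransferase, all fell in OPM1-labelled cells (38.5% of all genes), and 1 of them, EZH1, fell in MM1S cells (21.1%). SUZ12, the scaffold of the complex, read 442 and 481 in treated OPM1-labelled cells, against 2507 and 2119 in controls, and 2465 and 2289 in treated MM1S cells, against 3066 and 2911 in controls. Its mean was 0.200 of the control in OPM1-labelled cells and 0.795 in MM1S cells, and the log2 changes were -2.24 ± 0.14 in OPM1-labelled cells and -0.33 ± 0.14 in MM1S cells (SE; limma, adjusted p = 3.6e-12 and 0.0675). EZH2, the catalytic subunit and a drug target in lymphoma, read 164 and 173 in treated OPM1-labelled cells, against 672 and 517 in controls, and 1538 and 1378 in treated MM1S cells, against 1355 and 1244 in controls. It fell in OPM1-labelled cells (log2 change -1.63 ± 0.16, SE; limma, adjusted p = 6.0e-09). In MM1S cells both treated arrays lay above both controls, with a change of 0.16 (95% interval -0.16 to 0.49, adjusted p = 0.457). EZH1, the catalytic subunit prominent in resting cells, fell in both lines, with log2 changes of -0.72 in OPM1-labelled cells and -0.48 in MM1S cells (limma, adjusted p = 5.7e-05 and 6.9e-03). EED, the subunit that binds methylated H3K27, fell least (-0.37 in OPM1-labelled cells, limma, adjusted p = 0.0334). That call was lost under quantile normalization (-0.05, adjusted p = 0.709) and as a mean of its probe sets (0.02, adjusted p = 0.903). It was also lost without either OPM1-labelled control array (-0.35 and -0.40), without the first treated OPM1-labelled array (-0.255) and without either treated MM1S array.

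DOT1L methylates H3K79, KMT5A adds the first methyl group to H4K20 and KMT5B the next. KMT5A read 419.5 and 444 in treated OPM1-labelled cells, against 2489.7 and 1409 in controls, and 420.2 and 428 in treated MM1S cells, against 316 and 268 in controls. It fell in OPM1-labelled cells, with a log2 change of -2.04 ± 0.19, and rose in MM1S cells, with 0.50 ± 0.19 (SE; limma, adjusted p = 4.8e-09 and 0.0479). The 4 tested probe sets of KMT5A differed. The fall was measured by probe set 228443_s_at alone, without shared probe sets the change was -0.26 (adjusted p = 0.231), and probe set 225118_at read 116 and 133.2 in treated OPM1-labelled cells, against 73.1 and 92.9 in controls (log2 change 0.45, limma over probe sets, adjusted p = 9.7e-03). The rise in MM1S cells was lost without any one of 6 arrays, the 4 MM1S ones and both treated OPM1-labelled ones (adjusted p 0.0579 to 0.234). DOT1L fell in both lines, with log2 changes of -0.32 in OPM1-labelled cells and -0.42 in MM1S cells (limma, adjusted p = 0.0472 and 0.0217). Neither passed under quantile normalization (-0.01 and -0.28, adjusted p = 0.950 and 0.122) or without the filter on dim genes (0.114 and 0.073). The call of DOT1L in OPM1-labelled cells was also lost with 64 added, without shared probe sets and in eBayes without trend (limma, adjusted p = 0.0566, 0.0543 and 0.0614). In MM1S cells it was lost with the mean of probe sets (adjusted p = 0.0793), and the change was -0.22 without the first MM1S control array. Its other tested probe set had a log2 change of -1.07 in OPM1-labelled cells and -0.37 in MM1S cells (limma over probe sets, adjusted p = 8.7e-06 and 0.0481). KMT5B fell in MM1S cells, with a log2 change of -0.43 (limma, adjusted p = 0.0154), with -0.14 in OPM1-labelled cells (adjusted p = 0.402), and the MM1S call was lost without any one of 3 MM1S arrays (adjusted p 0.0581 to 0.0879) and without shared probe sets (-0.25, adjusted p = 0.120).

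Among demethylases of methylated H3K4, 3 of 4 fell in OPM1-labelled cells (38.5% of all genes) and 2 in MM1S cells (21.1%). KDM1B, a flavin-dependent enzyme known for its part in imprinting in mouse oocytes, read 37.3 and 36.8 in treated OPM1-labelled cells, against 260.1 and 268 in controls, and 39.99 and 46.8 in treated MM1S cells, against 59.2 and 61.9 in controls. The log2 change was -2.10 ± 0.12 (SE; limma, adjusted p = 1.4e-12) in OPM1-labelled cells and -0.30 (adjusted p = 0.059) in MM1S cells, with no overlap in either line. Its paralog KDM1A, the LSD1 enzyme of the CoREST complex, fell in both lines, with log2 changes of -0.78 in OPM1-labelled cells and -0.55 in MM1S cells (limma, adjusted p = 7.9e-05 and 5.6e-03). Without the second treated MM1S array or the first MM1S control array the MM1S call of KDM1A was lost (adjusted p = 0.0598 and 0.0611), and so was that of EZH1 (0.0771 and 0.0704). KDM5A, a retinoblastoma-binding enzyme that removes H3K4 trimethylation, fell in both lines, with log2 changes of -1.68 in OPM1-labelled cells and -0.85 in MM1S cells (limma, adjusted p = 4.2e-10 and 3.4e-05), and each of its 4 tested probe sets fell in both lines. KDM5B was dim, at 25.2 to 31.4 on all 8 arrays, and none of its comparisons was called.

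The KDM4 enzymes demethylate trimethylated H3K9 and H3K36. KDM4B read 85.1 and 81.2 in treated OPM1-labelled cells, against 478 and 471 in controls, and 54.5 and 41.8 in treated MM1S cells, against 476 and 402 in controls. It fell in both lines, with log2 changes of -2.14 ± 0.14 in OPM1-labelled cells and -2.56 ± 0.14 in MM1S cells (SE; limma, adjusted p = 7.5e-12 and 2.3e-12). KDM4C read 8.74 and 13.0 in treated OPM1-labelled cells, against 132.6 and 174 in controls, and 5.56 and 11.4 in treated MM1S cells, against 196 and 176 in controls. All 4 treated values of KDM4C lay below the limit of 27.3, and it fell in both lines, with log2 changes of -2.11 ± 0.14 in OPM1-labelled cells and -2.43 ± 0.14 in MM1S cells (SE; limma, adjusted p = 1.2e-11 and 6.4e-12). KDM4A read 155 and 159 in treated OPM1-labelled cells, against 182 and 188 in controls, and 228 and 210.2 in treated MM1S cells, against 373 and 323 in controls. It moved less, with -0.20 in OPM1-labelled cells (adjusted p = 0.206) and a called change of -0.60 in MM1S cells (limma, adjusted p = 1.2e-03). The other tested probe set of KDM4A rose in OPM1-labelled cells (0.37, limma over probe sets, adjusted p = 0.0458) and was not called in MM1S cells (-0.30, adjusted p = 0.145). Of the 7 members more than 2-fold lower in MM1S cells, KDM4B, KDM4C and KDM6A are the 3 whose difference between the lines was not called. That of KDM4B, 0.42 (adjusted p = 0.0815), passed under quantile normalization (0.55, limma, adjusted p = 0.0109), under poly-A scaling (1.00, 3.0e-03), with a replicate block (adjusted p = 0.0265) and without the second MM1S control array (0.0449). That of KDM6A, -0.22 (adjusted p = 0.357), passed with 16 added in place of 32 (-0.61, limma, adjusted p = 0.0294) and was 1.17 under poly-A scaling (1.0e-04). On the log2 ratio of the signals the difference of KDM6A was -1.80. That of KDM4C, 0.33 (adjusted p = 0.186), was 2.65 under poly-A scaling (2.2e-22). Poly-A scaling lowered the signals of OPM1-labelled arrays and raised those of MM1S arrays before 32 was added. Falls of dim genes in OPM1-labelled cells were thereby compressed, so no direction of the difference is drawn from these poly-A values.

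KDM2A and KDM2B demethylate H3K36 and bind unmethylated CpG islands, and KDM2B recruits a form of Polycomb repressive complex 1 there. KDM2B read 163 and 181 in treated OPM1-labelled cells, against 1318 and 1108 in controls, and 155 and 161 in treated MM1S cells, against 220.0 and 200.2 in controls. It fell in OPM1-labelled cells, with a log2 change of -2.60 ± 0.14 (SE; limma, adjusted p = 7.4e-13), to treated levels close to those of treated MM1S cells, where the change was -0.35 (adjusted p = 0.0634). KDM2A was called in neither line by its brightest probe set (95% intervals -0.39 to 0.27 in OPM1-labelled cells and -0.56 to 0.10 in MM1S cells). Its probe set 208988_at fell in OPM1-labelled cells (log2 change -0.41, limma over probe sets, adjusted p = 0.02), and 208989_s_at was not called there (0.22, adjusted p = 0.325). Under poly-A scaling KDM2A was called lower in OPM1-labelled cells (-1.46, limma, adjusted p = 1.5e-06). The H3K9 demethylase KDM3B fell in both lines, with log2 changes of -0.86 in OPM1-labelled cells and -0.69 in MM1S cells (limma, adjusted p = 4.8e-06 and 2.1e-04). KDM3A, induced by hypoxia in many cells, fell in OPM1-labelled cells, with a log2 change of -0.53 (limma, adjusted p = 4.2e-03), with 0.32 in MM1S cells (adjusted p = 0.109). The KDM3A call was lost under quantile normalization (-0.16, adjusted p = 0.203) and without the first treated OPM1-labelled array (adjusted p = 0.0647).

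The H3K27 demethylases KDM6A and KDM6B also parted. KDM6A, an X-linked tumour suppressor in myeloma, read 9.94 and 5.52 in treated OPM1-labelled cells, against 108 and 133.2 in controls, and 57.8 and 66.3 in treated MM1S cells, against 291 and 264 in controls. It fell in both lines, with log2 changes of -1.94 ± 0.13 in OPM1-labelled cells and -1.72 ± 0.13 in MM1S cells (SE; limma, adjusted p = 1.7e-11 and 6.2e-10). KDM6B, an inducible gene of inflammation and differentiation, read 116 and 129 in treated OPM1-labelled cells, against 101 and 100.3 in controls, and 135 and 136 in treated MM1S cells, against 98.0 and 91.1 in controls. Its change was 0.22 in OPM1-labelled cells (adjusted p = 0.126; -0.65 under poly-A scaling), and it rose in MM1S cells by 0.40 ± 0.12 (SE; limma, adjusted p = 0.0121), a call lost under poly-A scaling (0.22, adjusted p = 0.404). PHF8, an X-linked demethylase of H3K9 and H4K20, fell in both lines, with log2 changes of -1.65 in OPM1-labelled cells and -1.02 in MM1S cells (limma, adjusted p = 4.7e-10 and 2.7e-06). The other tested probe set of PHF8 was called in neither line (-0.09 in OPM1-labelled cells and -0.17 in MM1S cells, limma over probe sets, adjusted p = 0.651 and 0.437). The related KDM7A was called in neither line by its brightest probe set, but its other tested probe set, 221778_at, fell in both, with log2 changes of -1.38 in OPM1-labelled cells and -0.42 in MM1S cells (limma over probe sets, adjusted p = 4.7e-07 and 0.0227).

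The difference between the lines' responses, tested as an interaction, was called for 22 members. It was lower in OPM1-labelled cells than in MM1S cells for 21 (31.2% of all genes tested) and higher for SUV39H1 alone (15.3%). The 21 include PRDM2, for which no direction is given. KMT5A (-2.54 ± 0.27), KDM2B (-2.26 ± 0.20), SMYD2 (-1.94 ± 0.22), SUZ12 (-1.92 ± 0.19), KDM1B (-1.80 ± 0.17) and EZH2 (-1.79 ± 0.22) had the lowest values (log2, SE; limma, adjusted p = 1.7e-08 to 1.1e-06). Of those 6, KMT5A alone was called in MM1S cells. Without shared probe sets the difference was -0.43 for KMT5A (adjusted p = 0.197) and 0.003 for SMYD2 (0.991). Of the 22 calls, 10 held under every alternative that was run for them and has a test. By role, the difference was called lower for 8 of 10 H3K4 methyltransferases, 4 of 7 H3K9 methyltransferases and 3 of 4 genes of Polycomb repressive complex 2. It was called lower for 1 of 3 H3K79 and H4K20 methyltransferases and 2 of 4 LSD family and KDM5 demethylases. The same held for 2 of 7 KDM2, KDM3 and KDM4 demethylases and 1 of 4 KDM6, KDM7 and PHF8 demethylases, beside 31.2% of all genes.

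The untreated lines differed in these genes about as often as in all genes tested. In untreated OPM1-labelled cells 14 members were higher than in untreated MM1S cells (28.6% of all genes tested) and 13 lower (35.2%), with a median difference of 0.00 on the log2 scale. Arrays did not overlap for 16 members higher (36.8% of all genes) and 16 lower (42.8%). By the 2-fold rule 6 were higher (13.8% of all genes) and 4 lower (19%). KMT5A, KDM2B and SETDB2 led the higher ones, at 2.56 ± 0.19, 2.36 ± 0.14 and 2.10 ± 0.14 (SE; limma, adjusted p = 1.3e-10, 3.5e-12 and 1.2e-11). SMYD3 (1.93), KDM1B (1.68) and SETD1B (1.06) followed. SETD1B read 526 and 465 in untreated OPM1-labelled cells and 221 and 220.5 in untreated MM1S cells. The lowest were EZH2 (-1.10 ± 0.16), KMT5B (-1.04 ± 0.14), KDM6A (-1.03 ± 0.13), SUV39H1 (-0.95 ± 0.18), KDM4A (-0.81 ± 0.13) and SETD7 (-0.66 ± 0.15) (SE; limma, adjusted p up to 6.2e-04). KMT5B read 202 and 209.9 in untreated OPM1-labelled cells and 449 and 464 in untreated MM1S cells. SETD7 read 868 and 866 in untreated OPM1-labelled cells and 1515 and 1268 in untreated MM1S cells. This comparison and the responses to Zalypsis use the same untreated arrays. Under scaling to the poly-A control RNA all 39 members were called lower in untreated OPM1-labelled cells. So were 11759 of all 11865 genes tested. That control RNA read far higher on the untreated OPM1-labelled arrays (geometric means 349 and 541) than on the untreated MM1S arrays (22.7 and 24.97), so every member given above as higher in OPM1-labelled cells is lower by that scaling. As the control lay near background on the MM1S arrays, this scaling cannot decide the direction between the lines. The direction of KMT5B also turned without shared probe sets, to 0.89, and with the mean of probe sets the calls of KMT5B (-0.17, adjusted p = 0.142) and KDM4A (-0.24, adjusted p = 0.0724) were lost.

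**Figure D3:**
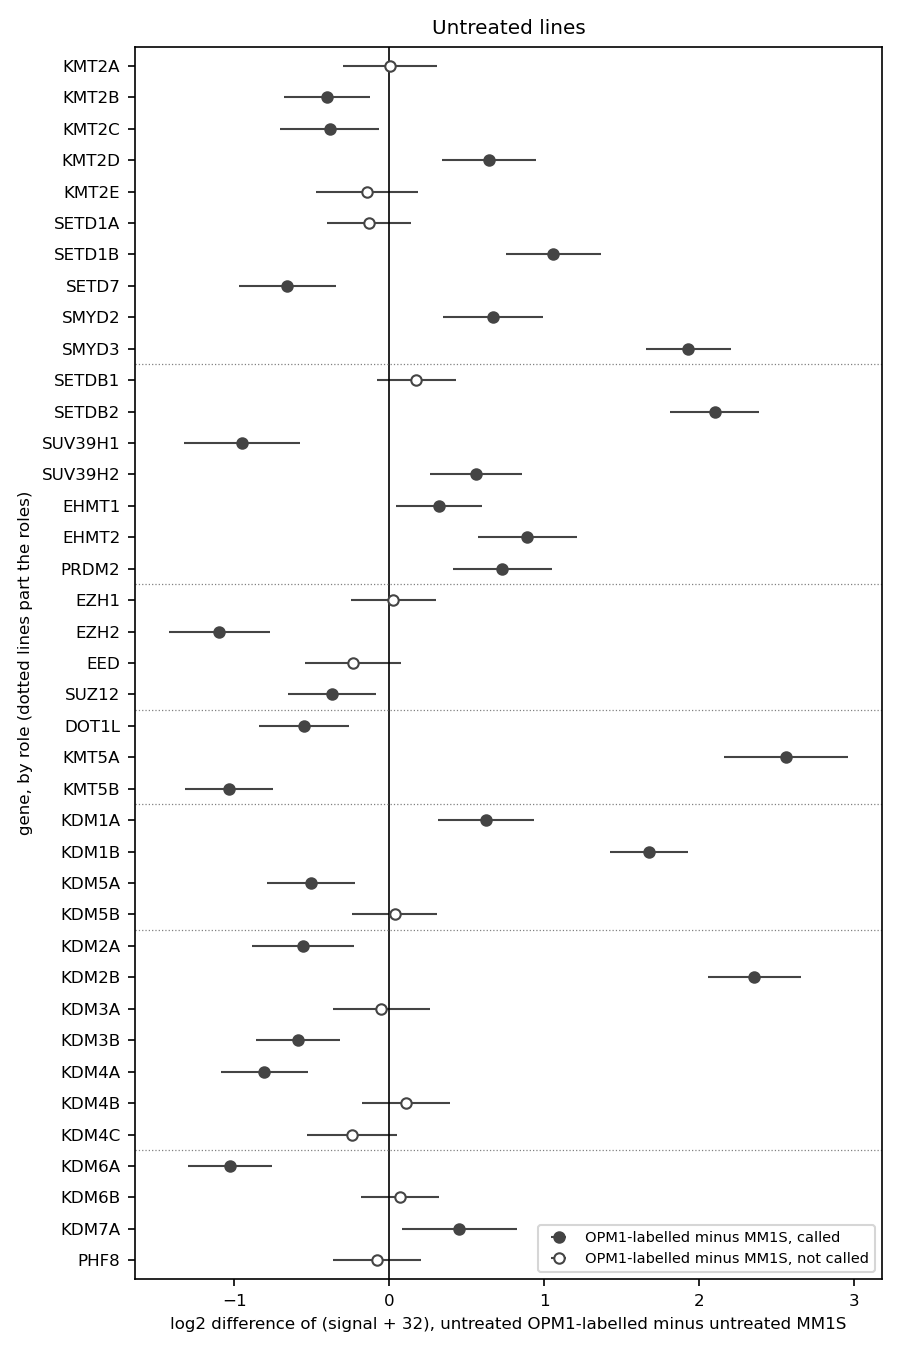
Log2 difference of (signal + 32), untreated OPM1-labelled minus untreated MM1S cells, for each of the 39 genes with 95% intervals and filled symbols for called differences, under the deposited scaling. Poly-A scaling, by a control near background on the MM1S arrays, gave every one a called lower value. KMT5A (2.56) and KDM2B (2.36) lie farthest to the right and EZH2 (-1.10) farthest to the left.

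Of the 14 genes that fell in both lines, 8 span more than 100 kb of the genome. Spans are those of RefSeq genes on GRCh38.p14. Of 12 members that span more than 100 kb, 11 fell in OPM1-labelled cells and 8 in MM1S cells, with median log2 changes of -2.02 and -1.37. The 11 include PRDM2, whose probe sets went both ways. Of all 1977 genes that span more than 100 kb, 65.0% fell in OPM1-labelled cells and 63.1% in MM1S cells, with medians of -1.07 and -0.69. Of 12 members under 50 kb, 5 fell and 2 rose in OPM1-labelled cells and 3 fell and 4 rose in MM1S cells, beside 26.3% lower and 33.6% higher in OPM1-labelled cells and 7.7% lower and 21.9% higher in MM1S cells among all 7962 genes of that span. Of the 15 in between, 11 fell in OPM1-labelled cells and 5 in MM1S cells, beside 61.7% and 33.8% of all 1916. Across the 39 genes, which share the same arrays, the log2 change correlated with log10 span at -0.69 (Spearman -0.61) in OPM1-labelled cells and -0.80 (Spearman -0.67) in MM1S cells. Across all 11855 genes with a span the values were -0.47 (-0.48) and -0.50 (-0.48). These are descriptions over genes, not tests over samples.

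**Figure D4:**
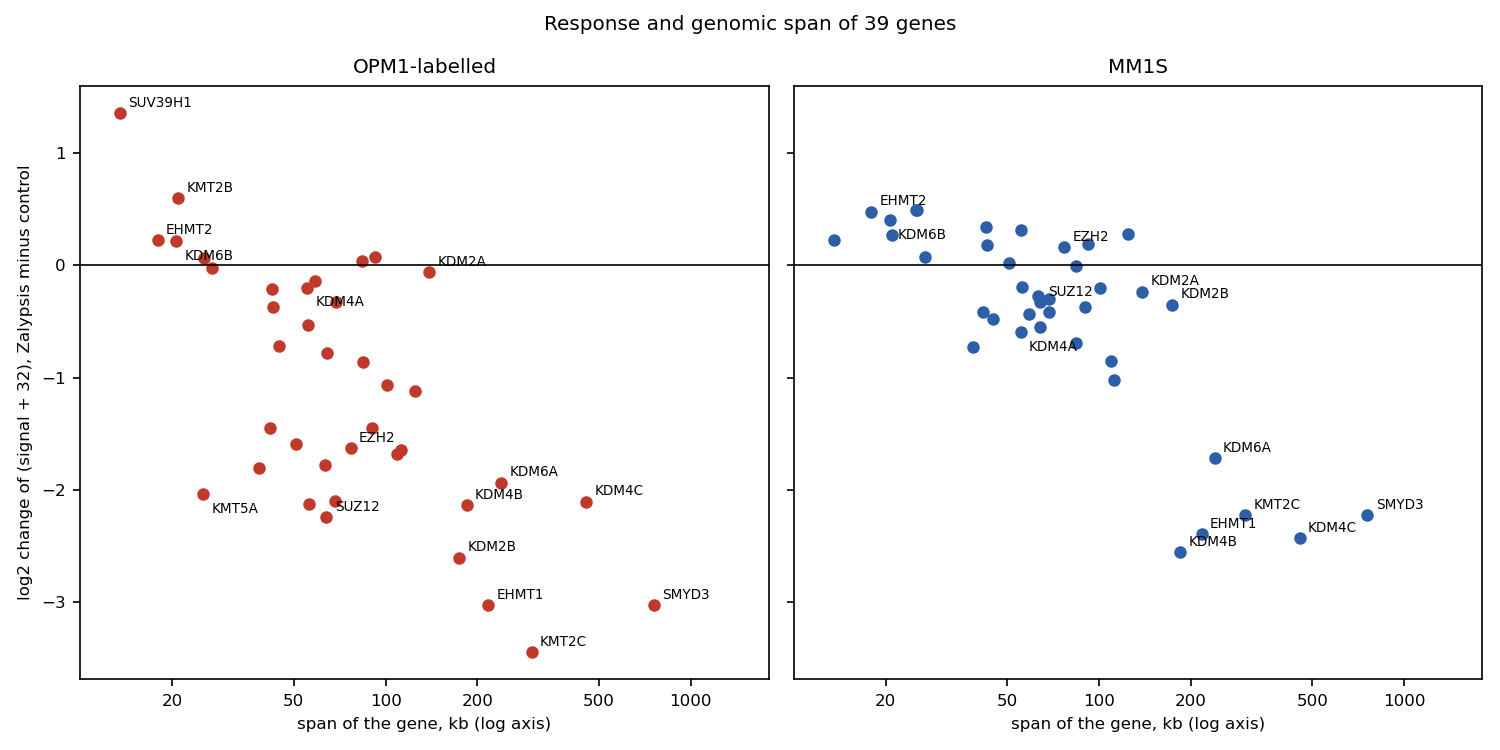
Log2 change of (signal + 32), Zalypsis minus control, against the genomic span of each of the 39 genes in kb (log axis), in OPM1-labelled and MM1S cells. KMT2C, EHMT1, KDM4B, KDM4C, KDM6A and SMYD3 lie at the lower right in both lines, and KMT5A (25.2 kb) stands low for its span in OPM1-labelled cells.

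Related genes of unlike span parted within 3 families. EHMT1 spans 217 kb (chr9:137619005-137836127) and EHMT2 17.9 kb (chr6:31879759-31897698). KMT2C spans 301 kb (chr7:152134925-152436003) and KMT2B 20.9 kb (chr19:35718003-35738878). KDM6A spans 240 kb (chrX:44873188-45112779) and KDM6B 20.6 kb (chr17:7834217-7854796). In each pair the long gene fell in both lines and the short one fell in neither, although under poly-A scaling all 3 short ones were called lower in OPM1-labelled cells (KMT2B -0.65, EHMT2 -1.34 and KDM6B -0.65; limma, adjusted p = 6.0e-03, 3.7e-06 and 1.3e-03). These pairs were chosen after the values were seen, and other members ran against the pattern. KMT2D (41.8 kb), which methylates H3K4 at enhancers as KMT2C does, fell in both lines, so KMT2C and KMT2D did not part. SETDB1 (38.5 kb) and EZH1 (44.8 kb) also fell in both lines, and KMT5A (25.2 kb) and EED (42.9 kb) fell in OPM1-labelled cells. KDM2A (139 kb) was called in neither line by its brightest probe set. Without shared probe sets it was called lower in OPM1-labelled cells (-0.41, limma, adjusted p = 0.0168). The 6 members with the lowest difference between the lines span 25.2 to 174 kb.

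The promoters of 2 such pairs are shown because their members share an enzymatic role and parted in expression. Each is the 250 bases before the RefSeq start on GRCh38.p14, written 5′ to 3′ on the gene's strand, with GC boxes (GGGCGG, or CCGCCC on the other strand) in capitals.
KMT2C, chr7:152436004-152436253, minus strand: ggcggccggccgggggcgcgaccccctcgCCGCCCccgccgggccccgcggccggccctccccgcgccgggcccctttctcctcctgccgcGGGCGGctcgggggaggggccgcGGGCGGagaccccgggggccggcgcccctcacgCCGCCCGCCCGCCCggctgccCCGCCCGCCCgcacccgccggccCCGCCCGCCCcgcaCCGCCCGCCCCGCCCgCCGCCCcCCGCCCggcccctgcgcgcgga
KMT2B, chr19:35717753-35718002, plus strand: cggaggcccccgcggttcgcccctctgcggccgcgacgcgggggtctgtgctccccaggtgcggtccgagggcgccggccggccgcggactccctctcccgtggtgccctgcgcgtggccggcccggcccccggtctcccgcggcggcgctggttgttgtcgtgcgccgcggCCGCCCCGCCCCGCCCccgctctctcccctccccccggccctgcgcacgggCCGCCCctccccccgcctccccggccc
EHMT1, chr9:137618755-137619004, plus strand: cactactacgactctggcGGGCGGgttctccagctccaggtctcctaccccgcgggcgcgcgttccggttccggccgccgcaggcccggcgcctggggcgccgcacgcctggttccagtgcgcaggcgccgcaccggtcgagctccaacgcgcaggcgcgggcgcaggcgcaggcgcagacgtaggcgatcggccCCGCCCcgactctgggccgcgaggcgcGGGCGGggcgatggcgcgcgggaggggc
EHMT2, chr6:31897699-31897948, minus strand: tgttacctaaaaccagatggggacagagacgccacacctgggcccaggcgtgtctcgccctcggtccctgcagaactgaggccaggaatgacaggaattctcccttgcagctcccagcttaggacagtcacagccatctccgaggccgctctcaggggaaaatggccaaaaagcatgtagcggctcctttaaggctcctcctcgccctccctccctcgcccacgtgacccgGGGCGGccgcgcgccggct
KMT2C holds 15 GC boxes, counting overlaps, KMT2B 4, EHMT1 3 and EHMT2 1, so these letters occur in the promoters of both the genes that fell and those that did not. RefSeq promoters were matched for 37 of the 39 members. A GC box stood in 27 of them (73.0%), against 42.64% of all 35116 promoters of this length, and the median number of CG pairs was 26 against 11. A CCAAT box (CCAAT or ATTGG) stood in 12 (32.4% against 32.01%), the letters TATAAA or TTTATA in none (10.72% of all), and TGACGTCA in 1, SUV39H2 (2.7% against 1.65%). Motifs may overlap, and a match is only a match of letters. The 35116 promoters were not limited to the 11865 genes tested, while all 39 members were tested, so the shares compare unlike sets.

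The single probe sets of a gene often read differently. Of the 129 member probe sets 95 were bright enough to test, and when each was tested by itself 51 fell and 7 rose in OPM1-labelled cells (39% and 23.4% of all 21642 tested) and 35 fell and 10 rose in MM1S cells (21.3% and 14.1%). For the next count the share over all genes was not computed, so it is a description of the members only. Of 26 members with more than 1 tested probe set, 7 had every one fall in OPM1-labelled cells and 7 in MM1S cells. KMT2C was one of them: its other 3 tested probe sets had log2 changes of -1.97, -2.39 and -0.36 in OPM1-labelled cells and -1.92, -2.27 and -0.41 in MM1S cells. KMT2A, PRDM2 and KMT5A had probe sets called in opposite directions in OPM1-labelled cells, and KMT2A in MM1S cells too. For KMT2A, probe sets 244110_at and 220546_at rose in both lines. Probe set 244110_at read 80.7 and 126 in treated OPM1-labelled cells, against 63.2 and 61.4 in controls, and 220546_at read 71.2 and 58.7 in treated cells, against 29.1 and 18.9 in controls. In MM1S cells 220546_at read 57.1 and 49.6 with Zalypsis and 11.7 and 12.5 without.

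PRDM2, a zinc finger protein of the RIZ family that is expressed in several isoforms, gave opposite answers in OPM1-labelled cells. Its brightest probe set, 203057_s_at, read 238 and 295 in treated OPM1-labelled cells, against 573 and 655 in controls (log2 change -1.12 ± 0.15, SE; limma, adjusted p = 1.3e-06). Probe set 205277_at read 146 and 180.0 in treated OPM1-labelled cells, against 45.0 and 62.0 in controls (log2 change 1.19; limma over probe sets, adjusted p = 5.4e-06). Neither pair of groups overlapped, and no direction can be given for PRDM2 as a gene. The transcripts that these probe sets detect were not analysed here. SETDB2 had 3 probe sets that fell in OPM1-labelled cells (-1.59, -1.54 and -1.88) and 2 that were not called (0.15 and 0.02), and those 2 rose in MM1S cells, by 0.55 and 0.70 on the log2 scale (limma over probe sets, adjusted p = 2.2e-03 and 7.3e-04). For SUZ12 only the brightest of 3 tested probe sets fell in OPM1-labelled cells, where the other two had -0.12 and -0.22, at signals of 72.1 to 106 in controls. In MM1S cells probe set 1566191_at of SUZ12 rose, by 0.56 (limma over probe sets, adjusted p = 7.6e-03). A probe set annotated to both SUZ12 and SUZ12P1, and another annotated to KMT2C and 2 BAGE genes, were left out.

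**Figure D5:**
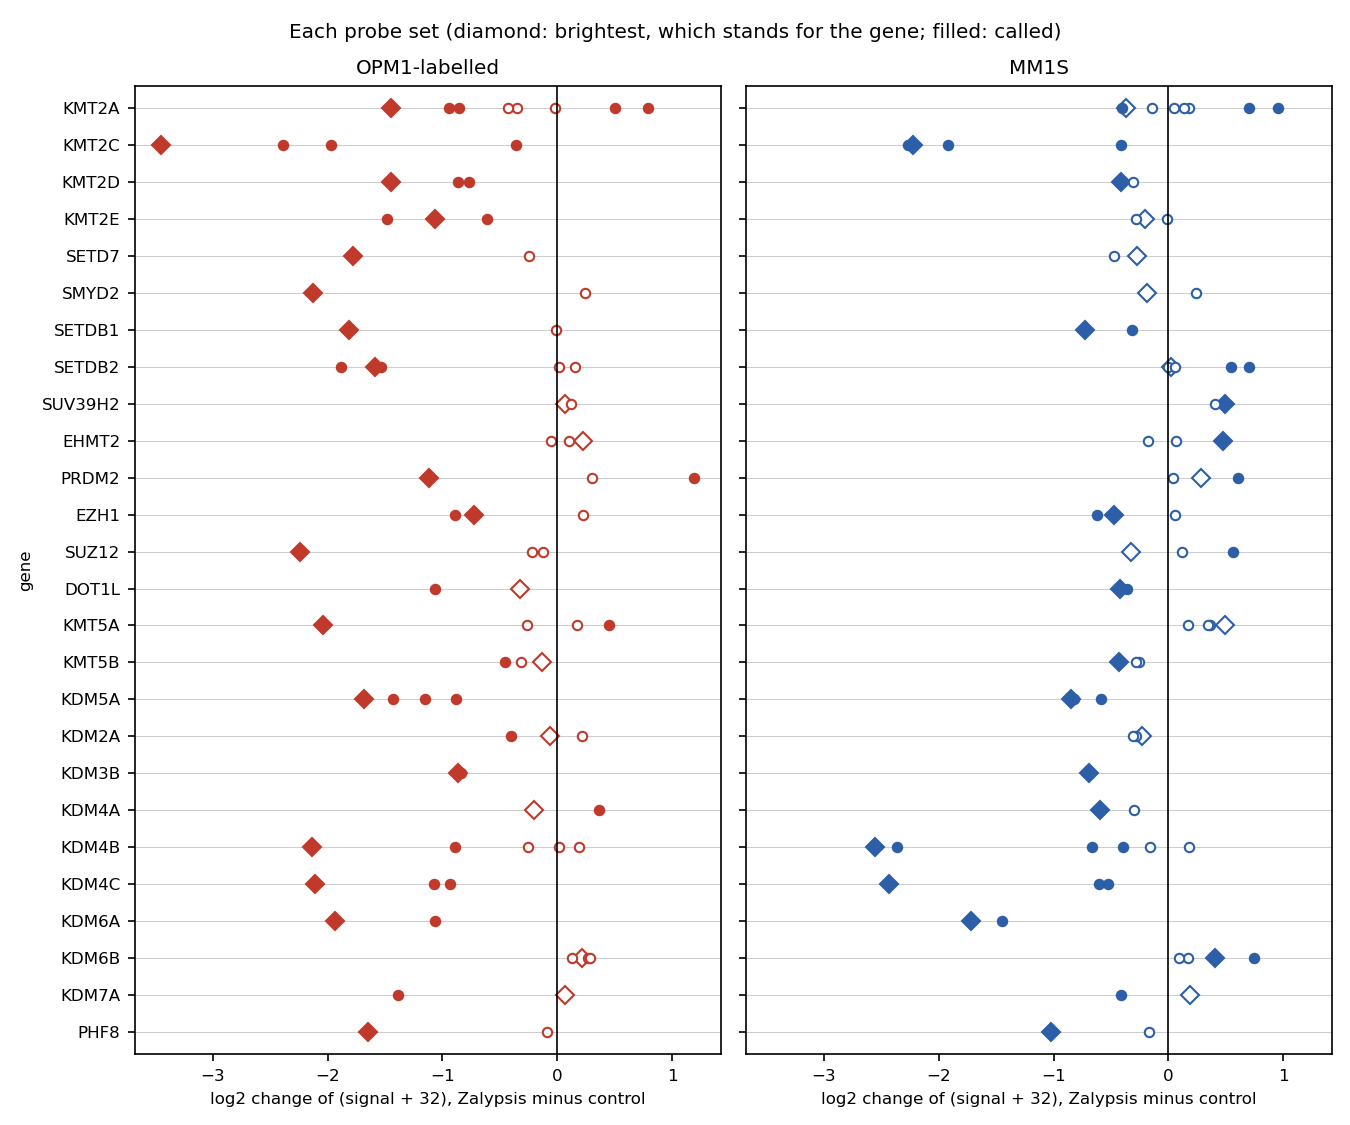
Log2 change of (signal + 32), Zalypsis minus control, of every tested probe set of the 26 members with more than 1, in OPM1-labelled and MM1S cells, with a diamond for the brightest probe set of a gene, a circle for the others and filled symbols for calls. KMT2C, KDM5A and KDM4C lie wholly to the left of 0 in both lines, and PRDM2 has filled symbols on both sides of 0 in OPM1-labelled cells.

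The partners and relatives of these enzymes were described from a list of 50 further genes, 46 of them tested. In OPM1-labelled cells 24 fell (38.5% of all genes) and 9 rose (25.4%), with a median log2 change of -0.37, and in MM1S cells 12 fell (21.1%) and 8 rose (16.4%), with a median of 0.08. The MM1S counts are near the shares of all genes. Of 7 cofactors of Polycomb repressive complex 2, 6 fell and 1 rose in OPM1-labelled cells, and 3 fell and 1 rose in MM1S cells. AEBP2, a DNA-binding cofactor, had 67.2 and 81.2 in treated OPM1-labelled cells, against 1165 and 823 in controls, the lowest log2 change of the list (-3.25 ± 0.16, SE; limma, adjusted p = 1.6e-13). JARID2, which recruits the complex, had 41.4 and 42.2 in treated OPM1-labelled cells, against 412 and 420.0 in controls, and 46.7 and 54.1 in treated MM1S cells, against 435 and 363 in controls. It fell in both lines, with log2 changes of -2.60 in OPM1-labelled cells and -2.38 in MM1S cells (limma, adjusted p = 1.6e-13 and 3.5e-12). PHF1, another cofactor, was the one that rose, in both lines, with log2 changes of 0.81 in OPM1-labelled cells and 0.94 in MM1S cells (limma, adjusted p = 1.0e-04 and 4.5e-05).

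Enzymes outside the 39 showed both directions. NSD2, the H3K36 methyltransferase activated by a recurrent translocation in myeloma, fell in both lines, with log2 changes of -2.40 in OPM1-labelled cells and -1.01 in MM1S cells (limma, adjusted p = 7.5e-12 and 1.6e-05). SETD2, which trimethylates H3K36, also fell in both, with log2 changes of -2.03 in OPM1-labelled cells and -0.94 in MM1S cells (limma, adjusted p = 8.6e-12 and 5.5e-06). The demethylase PHF2 was among the 4 lowest in MM1S cells (-1.08, adjusted p = 1.0e-06), where NSD1 rose most (1.28 ± 0.15, SE; adjusted p = 5.4e-07), followed by PHF1, PAGR1 (0.67) and SETMAR (0.54). In OPM1-labelled cells CXXC1, the CpG-binding subunit of the SETD1 complexes, rose by 1.00, RBBP5, a core subunit of all H3K4 complexes, by 0.90, and TRIM28, the partner of SETDB1, by 0.79 (limma, adjusted p = 6.7e-06, 3.7e-05 and 9.5e-06). These rises are relative to the deposited scaling and were not recomputed under another one.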

How the data were processed

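The deposited values are intensities on a linear scale, 1 per probe set and array, made by the authors with dChip per the series' design text. How dChip normalized the arrays and modelled the probes, and its version, are not given in the sources. Starting RNA was 100 ng, amplified in 2 cycles and labelled with biotin, per the labels' protocols. Of 54675 probe sets, 62 were controls, 41091 had 1 gene symbol in the platform annotation, 1801 had several and 11721 none, and 41037 matched a RefSeq gene ID. Each gene was represented by its brightest probe set, and the lowest 40% of genes by mean log2(signal + 32), those under a mean signal of 27.3, were left out, which left 11865 genes. limma 3.58.1 in R 4.3.3 was fitted to the log2 values with 1 mean for each of the 4 groups (4 residual degrees of freedom, 17.0 prior degrees of freedom, trended eBayes), with Benjamini-Hochberg adjustment over all genes tested. The fits were tested on simulated data. Precision is limited by the number of arrays, 2 a group. Samples were grouped by their titles. No 2 arrays of a group held the same values: at most 441 values were identical in a pair.

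The members and all gene lists were chosen with earlier results of these data known. All 39 members may be named. Values of every array were given for up to 6 called members higher and 6 lower per comparison by log2 change without overlap between groups, for members with probe sets called in opposite directions and for members called oppositely in the lines; those of SMYD2 were added after the values were seen. From the wider list, up to 4 called genes each way were named. Alternatives were quantile normalization, scaling to the poly-A control RNA, an added constant of 16 or 64, no filter, the lowest 60% left out, the mean of a gene's probe sets, no shared probe sets (names ending in _s_at or _x_at), eBayes without trend, a replicate block, the 2-fold rule, and each array left out in turn. The probe-set counts come from a separate fit to 21642 probe sets above the same limit.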

Additional observations from a re-analysis of the deposited data

Results flagged for a closer look

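The 22 results below are those where the response to Zalypsis differed between OPM1-labelled and MM1S cells by the interaction in limma (adjusted p under 0.05), given as the log2 change in OPM1-labelled cells minus that in MM1S cells. Groups of 2 arrays are too small for a check on single outlying arrays.

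Among H3K4 methyltransferases the differences were -1.08 for KMT2A, -1.22 for KMT2C, -1.03 for KMT2D, -0.86 for KMT2E, -0.56 for SETD1B, -1.50 for SETD7, -1.94 for SMYD2 and -0.80 for SMYD3. SETD1B was called in neither line alone, with -0.21 in OPM1-labelled cells and 0.35 in MM1S cells. Among H3K9 methyltransferases they were -1.09 for SETDB1, -1.61 for SETDB2, 1.14 for SUV39H1, -0.64 for EHMT1 and -1.40 for PRDM2. SUV39H1 is the one member with a higher response in OPM1-labelled cells, and poly-A scaling turned that to -0.25. Among the genes of Polycomb repressive complex 2 they were -1.79 for EZH2, -0.55 for EED and -1.92 for SUZ12, and for KMT5A the difference was -2.54. Among demethylases they were -1.80 for KDM1B, -0.83 for KDM5A, -2.26 for KDM2B, -0.84 for KDM3A and -0.63 for PHF8.

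Of these 22 calls, 10 held under every alternative that was run for them and has a test. Without shared probe sets SMYD2 had 0.003 (adjusted p = 0.991), PRDM2 1.15 (7.4e-05) and KMT5A -0.43 (0.197), so no direction is given for PRDM2. Poly-A scaling turned SMYD3 to 0.75, EHMT1 to 1.21 and PHF8 to 0.11, and with it KMT2C (-0.35), SETDB1 (-0.545) and KDM5A (-0.66) no longer passed. The 32 was added after that scaling, which compressed dim signals of OPM1-labelled arrays, so these turns give no direction. With the mean of probe sets KMT2C (-0.33), EHMT1 (-0.20), PRDM2 (-0.15), EED (-0.35) and PHF8 (-0.28) did not pass. Quantile normalization ended the calls of SETD1B (-0.32, adjusted p = 0.109) and EED (-0.305, adjusted p = 0.0944), and 16 added in place of 32 that of SMYD3 (-0.48, adjusted p = 0.0734). Leaving out 1 array ended the call of SETD1B for 5 of the 8 arrays (both MM1S controls, the first of each treated group and the first OPM1-labelled control), that of EED for 6 (all but the second treated OPM1-labelled and the first MM1S control array) and that of PHF8 for 2 (the first treated MM1S and the second MM1S control array).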

How the results depend on the processing

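Among the falls, 21 of 27 in OPM1-labelled cells and 11 of 16 in MM1S cells kept their direction and call. This holds for every alternative that has a test and was run for them. Without shared probe sets 9 members had no value, and with the lowest 60% left out 6 had none. The exceptions were EED, DOT1L, KDM3A, PRDM2, SMYD2 and KMT5A in OPM1-labelled cells and KMT2D, DOT1L, KMT5B, EZH1 and KDM1A in MM1S cells. Poly-A scaling called 38 genes higher and 8538 lower in OPM1-labelled cells, so it could hardly end a fall or spare a rise there. Falls and rises are therefore not compared for steadiness. The rise of SUV39H1 in OPM1-labelled cells turned under poly-A scaling and kept its call under the other alternatives. With 2 arrays a group and dim treated signals, changes of low genes are compressed by the added 32. Where a value moved below, the cause was not tested, except that fewer members (30) were tested without shared probe sets.

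Counts of members that moved by more than 1.5 times were as follows. Quantile normalization gave 6 higher in OPM1-labelled cells, 8 higher in MM1S cells and 6 higher for the difference between the lines. Poly-A scaling gave 0 higher in OPM1-labelled cells, 0 higher in MM1S cells, 5 higher for the difference, and 0 higher and 39 lower for untreated OPM1-labelled against untreated MM1S cells. The mean of probe sets gave 2 higher for the difference and 8 lower for the untreated lines. Without shared probe sets 17 fell in OPM1-labelled cells, 13 were lower for the difference and 7 lower for the untreated lines. The 2-fold rule gave 1 higher in OPM1-labelled cells, 0 higher and 7 lower in MM1S cells, and 6 higher and 4 lower for the untreated lines. Leaving out 1 array gave 2 to 2 higher and 25 to 27 lower in OPM1-labelled cells, 0 to 4 higher and 11 to 19 lower in MM1S cells, 1 to 2 higher and 18 to 22 lower for the difference, and 12 to 14 higher and 9 to 13 lower for the untreated lines. The 0 in MM1S cells came without the first treated MM1S array. The share of lower calls among all genes was 60.3% in OPM1-labelled cells, 56.2% in MM1S cells, 67.0% for the difference and 55.2% for the untreated lines; quantile normalization made it 45.4%, 45.4%, 52.4% and 48.4%, and poly-A scaling 99.6%, 83.5%, 89.5% and 99.5%. The median of all genes moved to 0.11 under quantile normalization and to -0.88 under poly-A scaling in OPM1-labelled cells, to -0.25 under poly-A scaling in MM1S cells and to -3.59 for the untreated lines.

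The labels do not say that replicate numbers pair the arrays, and deviations of same-numbered arrays correlated at 0.209 in OPM1-labelled cells and 0.212 in MM1S cells. With the number as a replicate block, 7 members were higher and 21 lower in MM1S cells, 3 higher and 22 lower for the difference, 2 and 27 in OPM1-labelled cells, and 14 and 13 for the untreated lines.

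Directions that turned were these. Quantile normalization gave SETD1A 0.37 in OPM1-labelled cells. Poly-A scaling gave KMT2B -0.65, SUV39H1 -0.30, SUV39H2 -1.40, EHMT2 -1.34, KDM6B -0.65 and KDM7A -0.50 in OPM1-labelled cells, and for the difference SMYD3 0.75, SUV39H1 -0.25, EHMT1 1.21, KDM2A -0.94, KDM6A 1.17 and PHF8 0.11. For the untreated lines poly-A scaling gave KMT2A -3.86, KMT2D -3.23, SETD1B -2.80, SMYD2 -3.37, SMYD3 -1.93, SETDB1 -3.54, SETDB2 -1.05, SUV39H2 -3.36, EHMT1 -3.52, EHMT2 -3.04, PRDM2 -3.23, EZH1 -3.72, KMT5A -1.45, KDM1A -3.31, KDM1B -1.74, KDM5B -2.28, KDM2B -1.59, KDM4B -3.83, KDM6B -3.22 and KDM7A -2.32. The mean of probe sets gave PRDM2 0.11, EED 0.02 and KDM7A -0.66 in OPM1-labelled cells, and SUZ12 0.029 and KDM5A 0.012 for the untreated lines. Without shared probe sets the values were SMYD2 0.24 and PRDM2 1.19 in OPM1-labelled cells, SMYD2 0.003 and PRDM2 1.15 for the difference, and PRDM2 -0.32, KMT5B 0.89 and KDM5A 0.49 for the untreated lines. The difference of DOT1L ranged from -0.75 to 0.29 on leaving out 1 array, and it was -0.65 without the first and -0.75 without the second treated OPM1-labelled array, where another probe set became the brightest. That of SMYD3 was 0.46 on the log2 ratio of the signals.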
